A study of Mus musculus with 12 samples.

Results

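The 34 mouse Hox genes studied here carry paralogue numbers 1 to 12 and were read from a table of 27179 genes by their Entrez identifiers. They are listed by name, without a threshold on a measured value, although the list was drawn up with earlier results of these data known. They lie in 4 clusters: 9 genes of cluster a on chromosome 6, 9 of cluster b on chromosome 11, 8 of cluster c on chromosome 15 and 8 of cluster d on chromosome 2. Of these, 29 passed the filter on low counts and were tested among 14136 genes. The 5 that did not were Hoxb1, Hoxc12, Hoxd1, Hoxd11 and Hoxd12.

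Hox genes encode homeodomain transcription factors that give cells their position along the head-to-tail axis of the embryo and along the limb. Within a cluster the genes stand in the order in which they are used: low paralogue numbers act early and towards the head, high numbers late and towards the tail. Genes with the same number in different clusters are paralogues and often share functions. Fibroblasts keep a Hox code in culture that reflects the body site they came from. Trithorax proteins and MYST acetyltransferases are known to help keep Hox genes on, and Polycomb proteins to keep them off.

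The cells were fibroblasts of wild-type C57BL/6 mouse embryos (E13.5), a connective-tissue cell type, kept in 3% O2, and their messenger RNA was sequenced. Each group received 10 µM of a compound, either WM-8014, labelled a MYST inhibitor, or its inactive counterpart WM-2474 (the control compound below), and was taken after 96 or 240 h. Cultures 5, 6 and 7 stand in each of the 4 groups, which gives 12 libraries, and the series calls the 3 per group biological replicates. No untreated cells were analysed here, and the labels name no body site.

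Total counts ran from 10147466 to 45903190 per library, and 3 reads, taken as the floor of detection, corresponded to 0.0615 to 0.303 CPM, the read count scaled to a common library total. All 12 libraries are labelled female, yet each held Y-linked transcripts, with Ddx3y at 96.3 to 124 CPM. Xist, a transcript of female cells, was at 0 to 0.203 CPM. The summed level of 10 fibroblast markers was 24160 to 40880 CPM. Pecam1, Epcam and Ptprc, defining markers of endothelium, epithelium and leukocytes, reached at most 0.303, 0.222 and 0.477 CPM. Other markers of those types were higher, up to 2.89 CPM for Kdr and 2.68 for Tek (endothelium), 23.8 for Krt19 (epithelium), and 6.15 for Csf1r and 4.33 for Cd68 (macrophages). In bulk RNA, fewer cells of a type and less RNA per cell cannot be told apart. Values are CPM on TMM-scaled totals within a gene, and RPKM (CPM per kilobase of the deposited gene length) between genes. Tests are edgeR quasi-likelihood F tests, two-sided, with p-values adjusted by the Benjamini-Hochberg method over all 14136 genes and a threshold of 0.05.

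Promoter stretches are shown for 4 members that the results below return to: Hoxa2 and Hoxa5, which fell with time, and Hoxd4 and Hoxd8, whose response to WM-8014 differed between the time points. Each is the 250 bases before the RefSeq start (build GRCm38.p6), 5′ to 3′ on the gene's strand. Capitals mark matches, on either strand, to TATAAA (the TATA box), CCAAT (bound by NF-Y), TGATTNAT (a joint site of TALE and Hox proteins) or AGGTCA (a nuclear receptor half-site).
Hoxa2, minus strand, chr6:52164832-52165081: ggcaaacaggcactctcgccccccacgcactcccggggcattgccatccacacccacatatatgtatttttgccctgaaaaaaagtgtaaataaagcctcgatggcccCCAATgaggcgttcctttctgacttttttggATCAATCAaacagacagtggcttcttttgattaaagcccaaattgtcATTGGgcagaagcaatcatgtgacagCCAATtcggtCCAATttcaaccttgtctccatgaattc
Hoxa5, minus strand, chr6:52204588-52204837: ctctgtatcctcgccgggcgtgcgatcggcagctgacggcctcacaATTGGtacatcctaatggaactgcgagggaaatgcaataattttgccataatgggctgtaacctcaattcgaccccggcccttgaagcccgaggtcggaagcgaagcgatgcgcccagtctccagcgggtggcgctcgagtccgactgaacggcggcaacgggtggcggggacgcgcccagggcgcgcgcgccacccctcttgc
Hoxd4, plus strand, chr2:74721728-74721977: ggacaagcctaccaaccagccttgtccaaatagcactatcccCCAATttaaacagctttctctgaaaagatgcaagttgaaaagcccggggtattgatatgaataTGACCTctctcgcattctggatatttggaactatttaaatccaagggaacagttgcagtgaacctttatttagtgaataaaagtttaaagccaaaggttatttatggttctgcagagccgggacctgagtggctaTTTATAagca
Hoxd8, plus strand, chr2:74704365-74704614: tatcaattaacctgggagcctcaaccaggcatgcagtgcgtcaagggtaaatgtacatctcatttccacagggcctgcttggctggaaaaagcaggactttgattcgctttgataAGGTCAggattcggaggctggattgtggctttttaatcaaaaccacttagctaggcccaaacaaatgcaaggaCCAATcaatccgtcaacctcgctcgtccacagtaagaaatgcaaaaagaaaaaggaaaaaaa

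A promoter was found for 20 of the 34 members, with 22 start sites in all. CCAAT stood in 12 of these 22 stretches (54.5%) and in 33.8% of all 32851 promoters of the same length. TATAAA stood in 3 (13.6%, against 12.4% of all). AGGTCA stood in 6 (27.3%, against 14%) and TGATTNAT in 2 (9.09%, against 2.82%), one of them that of Hoxa2. The median GC content was 56.8% for the members and 52.4% for all promoters. Hoxd4 and Hoxd8 each held a CCAAT and an AGGTCA match, Hoxa5 a single CCAAT match. The 4 CCAAT matches of Hoxa2 were the most in any member. A match here is only a run of letters.

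The clusters also hold microRNA genes. Those of the miR-196 family are shown because the Mir196a-1 row of the table changed (below) and because 8 members carry a match to their seed. The seed, bases 2 to 8, is in capitals and is the same in both.
miR-196a-5p, from Mir196a-1 beside Hoxb9, plus strand, chr11:96265187-96265208: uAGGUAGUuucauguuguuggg
miR-196b-5p, from Mir196b between Hoxa9 and Hoxa10, minus strand, chr6:52230129-52230150: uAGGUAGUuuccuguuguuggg

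The reverse complement of that seed, ACTACCT, occurs in the longest annotated 3′ UTR (GENCODE M21, build GRCm38) of Hoxa4, Hoxa5, Hoxa7, Hoxa9, Hoxb1, Hoxb6, Hoxb7 and Hoxc8. That is 8 of 34 members (23.5%), against 6.81% of 21104 protein-coding genes, whose median 3′ UTR of 1086 bases was longer than the members' 869. Stretches opposite the microRNA in Hoxa5 and Hoxc8 are printed with the seed match in capitals, as these genes moved in opposite directions with time. Hoxc8 holds 2 matches, of which the first along the gene is printed.
Hoxa5, minus strand, chr6:52202118-52202139: atatttttattcaaACTACCTa
Hoxc8, plus strand, chr15:102992976-102992997: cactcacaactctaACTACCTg

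Clusters b and c held most of the Hox RNA in these cells. Their summed levels over all groups were 108 to 143 and 104 to 132 RPKM per library, against 26.1 to 60.4 RPKM for cluster a and 15.7 to 24.3 RPKM for cluster d. The order of single genes by mean RPKM over the 12 libraries (± SD) began with Hoxb9 at 46.0 ± 4.38, Hoxc6 at 43.6 ± 4.32 and Hoxc8 at 31.1 ± 4.05, whose ranges over libraries overlapped from each to the next. Hoxb9 patterns the ribs, and Hoxc6 and Hoxc8 act at the level of the forelimb and chest. Hoxb6 at 17.2 ± 2.92, Hoxb8 at 15.3 ± 1.65, Hoxc9 at 13.9 ± 2.51 and Hoxb7 at 13.3 ± 0.78 RPKM followed, and neighbours in this order overlapped again. In cluster d Hoxd8 (12.5 ± 2.29 RPKM) stood well above Hoxd4 (3.01 ± 0.71), and in cluster a Hoxa5 (10.8 ± 4.15) above Hoxa7 (5.84 ± 1.8).

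By paralogue number, 5 to 9 held the leading gene of every cluster: Hoxa5, Hoxb9, Hoxc6 and Hoxd8. The 5 lowest members had numbers 1, 10, 11 or 12. Hoxb1 had 1 read in all 12 libraries together and Hoxd12 had 6. Hoxd1, Hoxd11 and Hoxc12 had 24, 65 and 77 reads. Hoxd10, Hoxc11 and Hoxd3 were tested but low, at 0.365, 0.936 and 1.34 RPKM. Against all 14136 tested genes, Hoxb9 stood at the 88.2 percentile of RPKM and Hoxa5 at the 55.8 percentile.

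**Figure D1:**
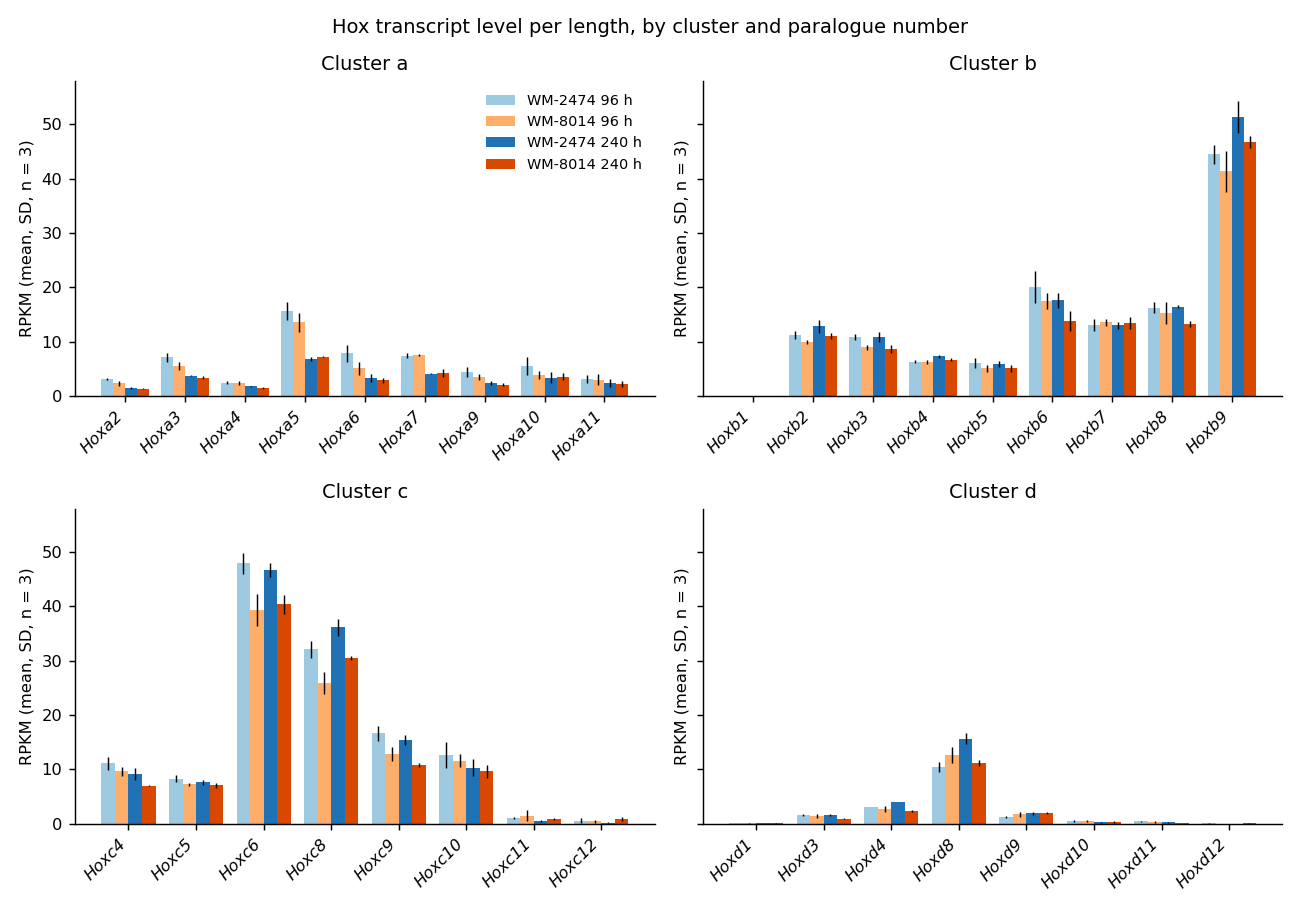
Level per length of the 34 Hox genes in each cluster, ordered by paralogue number. Bars are group means in RPKM over 3 cultures and error bars are SD. Hoxb9, Hoxc6 and Hoxc8 stand highest, Hoxa2 to Hoxa9 fall from 96 h (light bars) to 240 h (dark bars), and Hoxb1, Hoxd1 and Hoxd12 are close to 0.

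Between 96 and 240 h cluster a lost much of its RNA with either compound: its summed level was 56.5 ± 4.11 and then 29.3 ± 2.82 RPKM with WM-2474, and 46.8 ± 4.19 and then 28.3 ± 1.95 RPKM with WM-8014 (SD, n = 3). With the inactive WM-2474, 7 of its 9 members fell and none rose, and with WM-8014 the count was again 7 and none. The members that fell were the same ones: Hoxa2, Hoxa3, Hoxa4, Hoxa5, Hoxa6, Hoxa7 and Hoxa9. Over all genes tested, 19.1% were lower and 19.8% higher at 240 h with WM-2474 (38.9% in either direction). With WM-8014 the shares were 25% and 24.8% (49.7%). The median log2 change of cluster a was -0.88 with WM-2474 and -0.75 with WM-8014, beside -0.01 and -0.02 for all genes. At an unadjusted p under 0.05 no cluster a gene was higher in either, and DESeq2 called none higher.

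Hoxa5, which patterns the lung and the neck-to-chest skeleton, was the most abundant gene of the cluster. With WM-2474 it was at 25.7, 31.4 and 30.7 CPM in cultures 5, 6 and 7 at 96 h and at 13.4, 12.01 and 12.8 CPM at 240 h. With WM-8014 the values were 21.9, 28.3 and 26.04 CPM and then 13.5, 13.7 and 13.5 CPM. All 240 h libraries lay below all 96 h libraries, and at 240 h the WM-8014 libraries lay just above the control libraries. The log2 change was -1.22 (SE 0.088, adjusted p = 4.18e-10, edgeR) with WM-2474 and -0.90 (SE 0.093, adjusted p = 4.85e-08) with WM-8014, a 2.33-fold and a 1.87-fold fall.

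Hoxa7, a gene of the chest region, went from 14.02, 13.8 and 15.8 CPM to 7.99, 8.004 and 8.17 CPM with WM-2474. With WM-8014 it went from 15.2, 14.9 and 14.4 CPM to 9.48, 8.298 and 6.75 CPM. The groups did not overlap in time and did overlap between compounds. Its log2 change was -0.88 (adjusted p = 2.93e-07) and -0.88 (adjusted p = 3.19e-07).

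Hoxa3, needed for the thymus and parathyroid, and Hoxa2, the selector gene of the second pharyngeal arch, fell too. Hoxa3 changed by -0.96 (SE 0.10) with WM-2474 and -0.68 (SE 0.12) with WM-8014 on the log2 scale. Hoxa2 changed by -1.06 (SE 0.15) and -0.76 (SE 0.18). Their 240 h libraries lay below their 96 h libraries with both compounds. At 240 h Hoxa3 was at 9.22, 9.65 and 9.56 CPM under the control compound and 8.27, 9.65 and 7.96 CPM with WM-8014. Hoxa2 was then at 2.52, 2.22 and 2.92 CPM without the inhibitor and 2.02, 2.52 and 2.25 CPM with it, and Hoxa6 at 2.79, 2.31 and 1.83 CPM without the inhibitor and 1.61, 2.35 and 2.02 CPM with it. The 96 h values of these 3 are given with the effect of the compound. For Hoxa6 the log2 changes were -1.31 and -0.76, for Hoxa9 -0.85 and -0.75, and for Hoxa4 -0.52 and -0.64. Reads of Hoxa4, Hoxa5, Hoxa6 and Hoxa3 may be shared, because the Hoxa3 locus, introns included, spans the other 3. All of them lie on the minus strand, so a strand setting would not separate their reads. Hoxa7 and Hoxa9 lie outside that span.

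Hoxa10 and Hoxa11 did not pass without a block, a model term for the culture number. Hoxa10, which acts in the hip region and the uterus, had a log2 difference of -0.60 (-1.30 to 0.11, 95% interval) with WM-2474 and -0.13 (-0.90 to 0.64) with WM-8014. Hoxa11, a gene of the forearm and shank, was at -0.33 (-1.04 to 0.38) and -0.49 (-1.26 to 0.27). With the block, Hoxa10 fell with WM-2474 (-0.68, adjusted p = 2.37e-06), and Hoxa11 with WM-2474 (-0.45, 0.00895) and with WM-8014 (-0.46, 0.0113). Hoxa10 with WM-2474 also passed without the 96 h library of culture 7 (0.0314). The wide intervals without the block go with a spread between cultures described below.

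As a share of all Hox RNA per length, cluster a dropped from 17.0% ± 0.87 to 9.34% ± 0.88 with WM-2474 and from 16% ± 1.27 to 10.5% ± 0.81 with WM-8014 (SD, n = 3). Cluster b held 38.6% ± 1.02 and then 43.1% ± 1.43 with WM-2474, and 40.3% ± 1.91 and then 43.8% ± 1.2 with WM-8014. The share of cluster c stayed between 37.1% and 40.1% in the 4 group means. A share also moves when another cluster does. The summed level of cluster b was 128 ± 7.4 and then 135 ± 6.85 RPKM with WM-2474. With WM-8014 it was 118 ± 8.58 and then 119 ± 5.99 RPKM. Cluster c was at 130 ± 2.1 and then 126 ± 2.14 RPKM with WM-2474, and 108 ± 4.56 and then 107 ± 1.79 RPKM with WM-8014.

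The other clusters moved less and in both directions over time. Counting all clusters, 7 members rose and 9 fell of 29 with WM-2474, and 2 rose and 12 fell with WM-8014. Outside cluster a, Hoxc4 (a gene of the neck) was the only one that fell with both compounds, with changes of -0.31 and -0.47 on the log2 scale. Hoxb9 and Hoxc8 rose with both: Hoxb9 by 0.20 and 0.18, Hoxc8 by 0.16 and 0.24. Of the 9 members that fell with WM-2474, 8 (88.9%) also fell with WM-8014, where they made up 66.7% of 12. Over all genes these shares were 76.2% and 58.2%.

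Hoxb9 showed the size of such a rise. Its values with WM-2474 were 115, 124 and 122 CPM at 96 h and 132, 147 and 136 CPM at 240 h. With WM-8014 they were 101, 121 and 114 CPM at 96 h and 123, 128 and 127 CPM at 240 h. The 240 h libraries lay above the 96 h libraries within each compound, by a step smaller than the fall of cluster a.

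Hoxd4, Hoxd8 and Hoxd9 rose with WM-2474, by 0.40, 0.60 and 0.55. With WM-8014 none of the 3 passed, at -0.26, -0.20 and 0.24. Hoxb2 and Hoxb4 also rose with WM-2474 (by 0.20 and 0.19), and Hoxd10 fell by 1.01 (adjusted p = 0.0383). Hoxb6, Hoxb8, Hoxc9 and Hoxd3 fell with WM-8014, with log2 changes of -0.31, -0.19, -0.24 and -0.58. For the members that changed with 1 compound and not with the other, the test of the difference is the interaction given below, which of these only Hoxd4 and Hoxd8 passed.

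Hoxa2, Hoxa3, Hoxa5, Hoxa7 and Hoxa9 kept their calls in all 23 alternative settings, with both compounds. With WM-2474, Hoxa4 was lost without the 96 h library of culture 7 (adjusted p = 0.206) or the 240 h library of culture 7 (0.057), and without WM-2474 96 h cultures 6 and 7 together (0.418), where Hoxa6 was at 0.0656. With WM-8014, Hoxa6 was lost without the 96 h library of culture 6 (0.0675). Most of the smaller time changes of the other clusters were lost without a library; Hoxd8 with WM-2474 and Hoxc4 and Hoxc8 with WM-8014 were not lost in any of the 23. Leaving out a WM-2474 library ended Hoxb2 (0.117 to 0.21 without 96 h or 240 h culture 6 or 7), Hoxb4 (0.0731 to 0.126), Hoxc4 (0.151 and 0.0637 without 96 h or 240 h culture 7), Hoxc8 (0.0683 and 0.0908 without 96 h culture 5 or 240 h culture 7), Hoxd9 (0.0563 without 240 h culture 6) and Hoxd10 (0.0585 to 0.18). With WM-2474, DESeq2 did not call Hoxa4 (0.0675), Hoxb2 (0.115), Hoxb4 (0.13) or Hoxd10 (0.123), and thinned counts lost Hoxa4 (0.0863), Hoxb2 (0.151), Hoxb4 (0.0782) and Hoxc4 (0.0794). With WM-8014, Hoxb8 was lost under both (0.0628 and 0.0847) and Hoxb6 with thinned counts (0.0534). Leaving out a WM-8014 library ended Hoxb6 (0.0596 to 0.126), Hoxb8 (0.111 to 0.198), Hoxb9 (0.0901 without 96 h culture 5), Hoxc9 (0.0517 to 0.118) and Hoxd3 (0.122 and 0.082 without 96 h culture 5 or 240 h culture 6).

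Marker sums of some other cell types moved over the same interval. That of 6 neuron and glia markers, mostly Tubb3, overlapped between the time points. It was 62.0 to 72.0 and then 58.1 to 75.7 CPM with WM-2474, and 62.8 to 66.9 and then 53.7 to 66.35 CPM with WM-8014. The sum of 6 leukocyte markers was 7.24 to 7.98 and then 4.95 to 6.22 CPM with WM-2474. With WM-8014 it was 9.0 to 12.3 and then 9.58 to 11.2 CPM. The sum of 5 endothelial markers was 5.86 to 7.6 CPM at 96 h and 2.31 to 3.12 CPM at 240 h with WM-2474, and 3.89 to 5.88 and 2.42 to 2.65 CPM with WM-8014. The sum of 6 epithelial markers was 20.3 to 27.8 and then 12.1 to 13.9 CPM with WM-2474. With WM-8014 it was 18.6 to 20.7 and then 13.1 to 16.9 CPM. Krt19 made up most of it, with means of 21.2 and then 11.9 CPM with WM-2474, and 18.4 and then 12.97 CPM with WM-8014. For 6 markers of kidney and gonad mesenchyme the sum went from 102 to 104 CPM down to 75.3 to 79.2 CPM with WM-2474 and from 86.3 to 97.7 down to 45.7 to 46.2 CPM with WM-8014. Acta1 made up nearly all of a skeletal muscle sum that was 112 to 150 CPM at 96 h and 226 to 628 CPM at 240 h. Myod1, Myog and Ckm reached at most 0.362, 0.225 and 0.0679 CPM. The sum of 10 fibroblast markers was 24160 to 29080 CPM at 96 h and 38950 to 40880 CPM at 240 h. Col1a1, Col1a2, Col3a1 and Vim made up most of it. Of the 10, 7 rose and 1 fell with WM-2474, and 8 rose and 1 fell with WM-8014. Mean Pdgfra went from 299.5 to 205 CPM with WM-2474 and from 329 to 152 CPM with WM-8014. The part of these markers in the Hox changes was not tested.

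**Figure D2:**
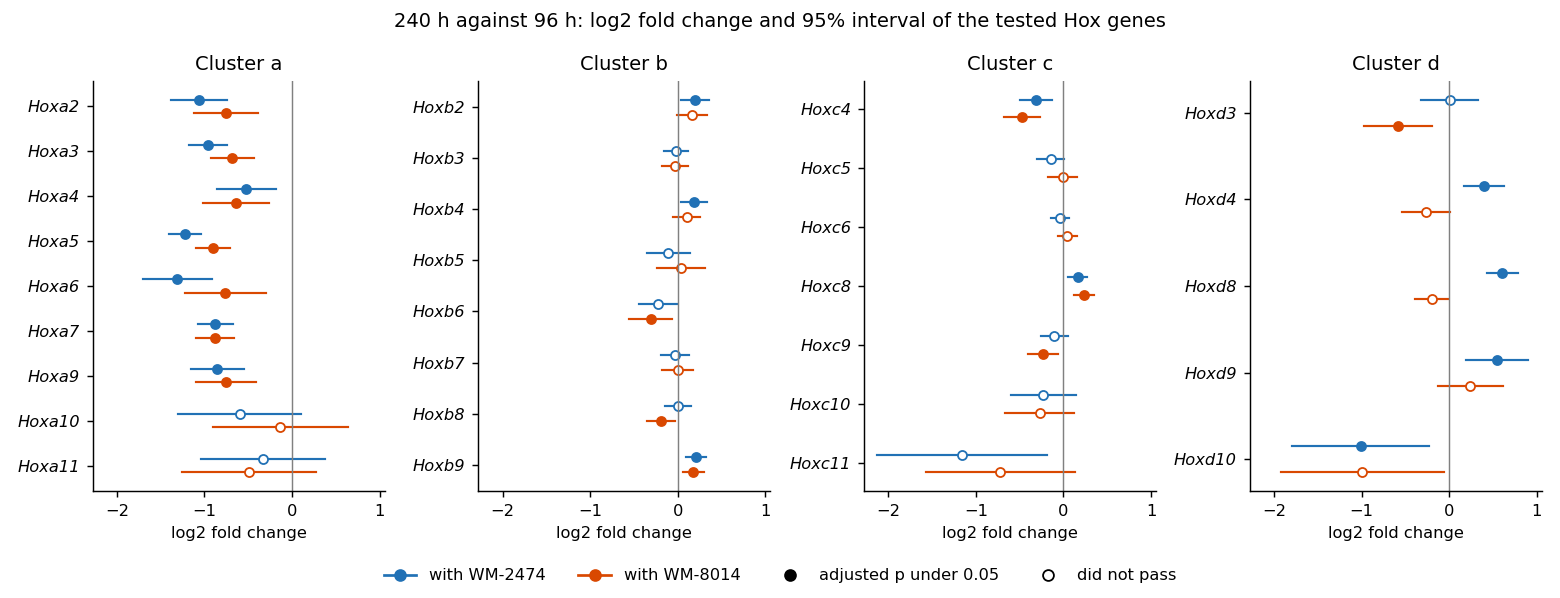
Change from 96 to 240 h with each compound, by cluster. Points are edgeR log2 fold changes, lines their 95% intervals, and filled points passed at an adjusted p under 0.05. The cluster a genes from Hoxa2 to Hoxa9 lie left of 0 with both compounds, and Hoxd4 and Hoxd8 lie right of 0 with WM-2474 and left of it with WM-8014.

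At 96 h 8 of the 29 tested members were lower and 1 was higher with WM-8014 than with WM-2474. Cluster c gave 4 of the falls (Hoxc5, Hoxc6, Hoxc8 and Hoxc9), cluster a 3 (Hoxa2, Hoxa3 and Hoxa6) and cluster b 1 (Hoxb3), and Hoxd8 was the gene that rose. Over all genes 11.8% were lower and 10.9% higher (22.8% in either direction). The changes were small: the members' median was -0.22 on the log2 scale, beside 0 for all genes, and 23 of 29 had a value below 0. The largest fall was that of Hoxa6, 1.605-fold.

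Hoxc6 was the most abundant of these. It stood at 72.7, 77.9 and 78.3 CPM under the control compound and 61.2, 58.8 and 67.8 CPM with WM-8014 in cultures 5, 6 and 7. Every WM-8014 library was below every WM-2474 library (log2 fold change -0.29, SE 0.051, adjusted p = 0.000325, edgeR). Hoxc8, which sets the identity of motor neurons that serve the forelimb, was at 72.04, 75.97 and 79.8 CPM under the control compound and 60.2, 57.1 and 66.6 CPM with WM-8014. Here too the groups did not overlap (-0.32, SE 0.053, adjusted p = 0.000215). Hoxc9, which gives spinal cord neurons a chest-level identity, was at 30.9, 25.97 and 28.6 CPM without the inhibitor and 22.6, 19.7 and 23.9 CPM with it. Its groups were apart as well (-0.37, SE 0.077, adjusted p = 0.00157).

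Hoxc5, a neck-level gene, was at 20.8, 22.4 and 24.3 CPM under the control compound and 20.04, 18.6 and 20.3 CPM with WM-8014. The highest WM-8014 library lay just under the lowest WM-2474 library (adjusted p = 0.0402, log2 fold change -0.22). For Hoxb3, which acts in the hindbrain and pharyngeal arches, the values were 38.3, 39.7 and 42.8 CPM without the inhibitor and 31.4, 34.9 and 33.8 CPM with it. These groups stood clearly apart (adjusted p = 0.0047, log2 fold change -0.29). The Hoxb3 locus spans Hoxb4, so reads of these genes may be shared.

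In cluster a, Hoxa3 was at 15.6, 18.5 and 20.04 CPM under the control compound and 13.2, 16.4 and 12.7 CPM with WM-8014. The groups overlapped through the low WM-2474 library of culture 5, and each culture was lower with WM-8014 (-0.39, adjusted p = 0.00899). Hoxa6, a chest-level gene, was at 4.18, 5.93 and 6.31 CPM without the inhibitor and 2.79, 4.501 and 3.38 CPM with it, again lower in each culture with overlapping groups (-0.68, adjusted p = 0.0112). Hoxa2 was at 4.83, 5.35 and 5.53 CPM without the inhibitor and 3.33, 3.75 and 4.74 CPM with it, with a narrow gap between the groups (-0.43, adjusted p = 0.0445).

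Fitted with a block for the cultures, 12 members rather than 8 were lower at 96 h. Over all 14136 genes, 1853 were lower with the block and 1674 without it. The block added Hoxa5 (adjusted p = 0.0415), Hoxa9 (0.0257), Hoxa10 (0.000549) and Hoxb6 (0.0256), which without it were at 0.0632, 0.142, 0.389 and 0.124.

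Without WM-2474 96 h cultures 6 and 7 together, which leaves a lone library assumed to vary like the other groups, Hoxc9 alone passed (adjusted p = 0.0158), Hoxc6 was at 0.112 and Hoxc8 at 0.0918. Hoxc9 passed in all 23 alternatives (8.29e-05 to 0.0216), and Hoxc6 and Hoxc8 in all others. The other calls depended on the method or on a library. DESeq2 did not call Hoxa2 (0.146) or Hoxc5 (0.103), and with counts thinned to the smallest total Hoxa2 (0.247), Hoxc5 (0.112) and Hoxd8 (0.103) were lost. Without culture 7 of the WM-2474 96 h group, Hoxa3 (0.125), Hoxa6 (0.135), Hoxb3 (0.0636), Hoxa2 (0.206), Hoxc5 (0.315) and the rise of Hoxd8 (0.118) were lost. Without culture 6 of that group, Hoxa2 (0.0859), Hoxc5 (0.0601) and Hoxd8 (0.0686) were lost. Without culture 5 of the WM-8014 96 h group, Hoxa2 (0.203), Hoxa6 (0.0773), Hoxc5 (0.0734) and Hoxd8 (0.14) were lost. Without culture 6 of that group, Hoxa2 (0.121) and Hoxc5 (0.146) were lost, and without culture 7 of that group, Hoxa3 (0.0566), Hoxc5 (0.0551) and Hoxd8 (0.0547). Hoxa2 was also at 0.0518 without culture 5 of the WM-8014 240 h group.

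At 240 h 11 of 29 members were lower with WM-8014 and none was higher, while 21.4% of all genes were lower and 21.2% higher (42.6% in either direction). The falls came from clusters b (Hoxb2, Hoxb3, Hoxb6 and Hoxb8), c (Hoxc4, Hoxc6, Hoxc8 and Hoxc9) and d (Hoxd3, Hoxd4 and Hoxd8). Cluster a gave no call in either direction. The members' median was -0.17 on the log2 scale, beside 0.005 for all genes. No member was higher at an unadjusted p under 0.05 with edgeR, and DESeq2 called none higher. For cluster a the unadjusted count was 0 in both directions. Of the 8 members lower at 96 h, 4 (50%) were lower again at 240 h: Hoxb3, Hoxc6, Hoxc8 and Hoxc9, 36.4% of the 11. Over all genes these shares were 75.3% and 41.6%.

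Hoxd4, which patterns the hindbrain and the neck vertebrae, changed most among the members that passed. It was at 10.24, 10.23 and 10.25 CPM under the control compound and 5.35, 5.67 and 6.46 CPM with WM-8014, so the treated libraries lay far below a tight control group (1.75-fold lower, log2 fold change -0.80, SE 0.12, adjusted p = 1.02e-05, edgeR). Hoxd3, its neighbour, was at 4.93, 3.91 and 4.51 CPM without the inhibitor and 2.83, 2.42 and 2.77 CPM with it. These groups did not overlap either (1.69-fold lower, -0.76, adjusted p = 0.00128). The Hoxd3 locus spans Hoxd4, so their reads may be shared.

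Hoxd8, which lies next along chromosome 2 and is not spanned by Hoxd3, was at 21.8, 21.1 and 23.96 CPM under the control compound and 16.1, 14.9 and 16.5 CPM with WM-8014. The groups stood apart (1.42-fold lower, -0.50, SE 0.086, adjusted p = 7.01e-05). Hoxd9, the next gene towards the tail end, did not pass (0.08, 95% interval -0.26 to 0.42).

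In cluster c, Hoxc9 was at 24.6, 27.4 and 27.3 CPM under the control compound and 18.1, 19.2 and 18.5 CPM with WM-8014, with no overlap (1.42-fold lower, -0.50, SE 0.077, adjusted p = 1.77e-05). Hoxc8 was at 83.03, 83.7 and 90.01 CPM without the inhibitor and 71.02, 72.7 and 72.8 CPM with it, again apart (-0.24, adjusted p = 0.000541). Hoxc6 was at 74.8, 76.1 and 72.2 CPM without the inhibitor and 61.2, 64.9 and 66.6 CPM with it (-0.21, adjusted p = 0.00203). All 3 thus passed as lower with WM-8014 at both time points, as did 1260 of all genes tested. Hoxc4 was at 18.9, 19.6 and 15.8 CPM without the inhibitor and 14.02, 13.5 and 13.97 CPM with it, with the treated libraries close together and below the controls (-0.39, adjusted p = 0.00204).

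In cluster b, Hoxb8, known for its role in blood progenitors and microglia, was at 42.7, 43.3 and 44.4 CPM under the control compound and 33.8, 36.96 and 34.5 CPM with WM-8014 (-0.30, adjusted p = 0.00268). Hoxb3 was at 38.8, 43.98 and 37.9 CPM without the inhibitor and 29.4, 33.3 and 34.4 CPM with it (-0.30, adjusted p = 0.00104). Neither gene's groups overlapped. Hoxb6, a gene of the lateral mesoderm, was at 21.9, 25.4 and 22.5 CPM without the inhibitor and 15.4, 19.9 and 19.2 CPM with it (-0.33, adjusted p = 0.0253), and Hoxb2, a hindbrain gene, at 18.8, 22.4 and 21.5 CPM without the inhibitor and 17.6, 18.9 and 17.4 CPM with it (-0.21, adjusted p = 0.0279). Hoxb6 groups stood apart, while for Hoxb2 the culture 5 control lay among the treated libraries. Hoxb9, the most abundant member, was lower in 3 of 3 cultures, with no overlap between groups, without passing (-0.13, 95% interval -0.25 to -0.02, adjusted p = 0.0542).

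Several of these genes had shown no such gap at 96 h. Hoxb8 was then at 41.2, 41.5 and 45.98 CPM under the control compound and 34.2, 43.4 and 43.5 CPM with WM-8014, and Hoxb6 at 22.6, 26.8 and 30.3 CPM without the inhibitor and 20.9, 24.8 and 23.6 CPM with it. Hoxc4 was at 19.8, 21.6 and 24.5 CPM without the inhibitor and 17.2, 20.4 and 19.7 CPM with it and Hoxd3 at 3.99, 5.21 and 4.201 CPM without the inhibitor and 4.89, 3.07 and 3.79 CPM with it. The groups of these 4 overlapped. Hoxb2 was at 19.7, 17.2 and 18.2 CPM without the inhibitor and 15.5, 16.6 and 16.4 CPM with it, where all treated libraries lay below the controls without a call (adjusted p = 0.131). Hoxc5, lower at 96 h, was at 21.9, 20.3 and 19.8 CPM without the inhibitor and 17.96, 20.6 and 19.2 CPM with it at 240 h, where its groups overlapped.

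Hoxb3, Hoxb8, Hoxc6, Hoxc8, Hoxc9, Hoxd3, Hoxd4 and Hoxd8 passed at 240 h in all 23 alternatives. Hoxb2 was lost without culture 6 (0.153) or 7 (0.0827) of the WM-2474 240 h group or culture 5 (0.0691) or 7 (0.0942) of the WM-8014 240 h group, and under DESeq2 (0.0738); Hoxb6 was lost without culture 6 of the WM-2474 240 h group (0.104) or culture 5 of the WM-8014 240 h group (0.0707); Hoxc4 was lost without culture 6 in all groups (0.0794). Hoxb9 gained a call in 8 of 23 alternatives: with the block (0.00559), with no filter (0.038), with only the libraries compared (0.0216), with thinned counts (0.0464), without culture 5 in all groups (0.0197), without the WM-2474 240 h (0.022) or WM-8014 96 h (0.0168) library of culture 5, and without culture 6 of the WM-8014 96 h group (0.0273).

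**Figure D3:**
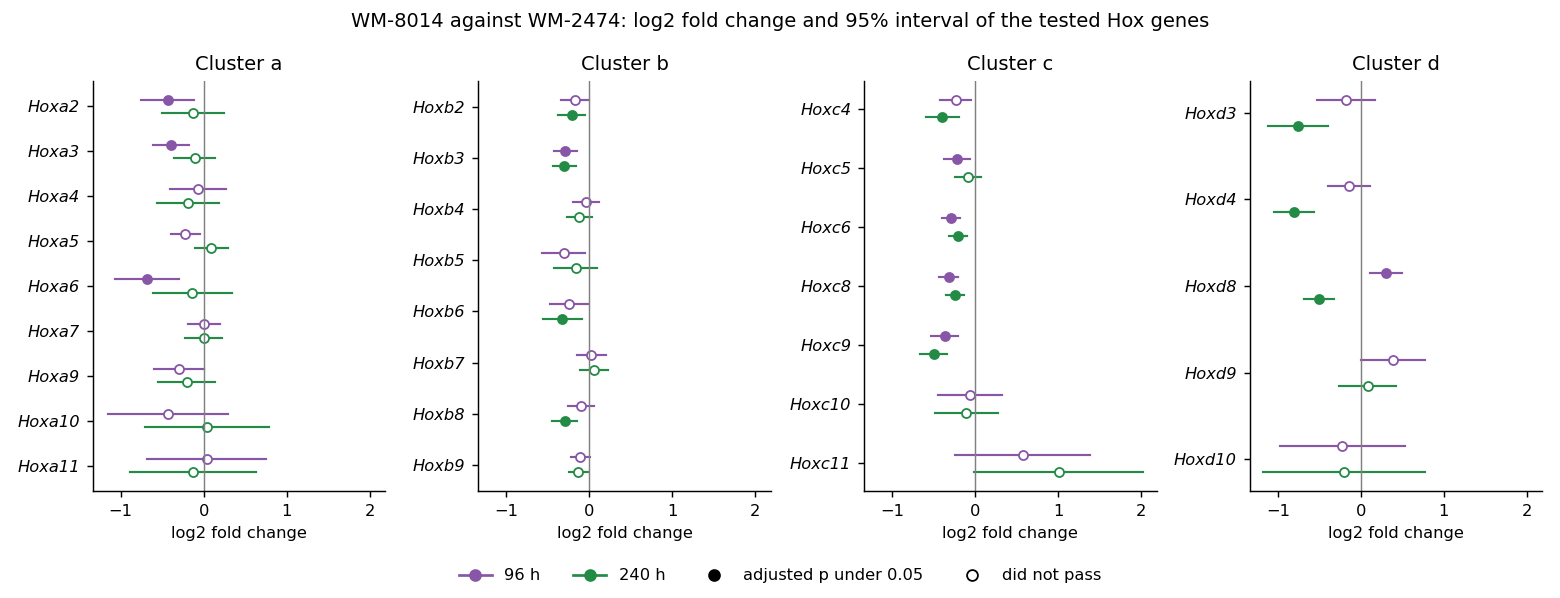
WM-8014 against WM-2474 at 96 and 240 h, by cluster. Points are edgeR log2 fold changes, lines their 95% intervals, and filled points passed at an adjusted p under 0.05. Cluster a passes in places at 96 h and nowhere at 240 h, Hoxc6, Hoxc8 and Hoxc9 pass at both times, and Hoxd8 changes sign.

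In the fit without a block, only Hoxd4 and Hoxd8 passed the test of whether the effect of WM-8014 differed between 96 and 240 h, 2 of 29, beside 5.53% of all genes with a more negative and 5.15% with a more positive effect at 240 h (10.7% in either direction). Hoxd8 is the member whose direction turned. At 96 h it was at 16.4, 13.8 and 14.3 CPM under the control compound and 20.1, 15.9 and 18.2 CPM with WM-8014, higher in each culture although the groups overlapped (0.30, SE 0.091, adjusted p = 0.0199). At 240 h, as given above, it was lower in each culture. The difference between the effects was -0.81 on the log2 scale (SE 0.13, 95% interval -1.07 to -0.54, adjusted p = 0.000194) and passed in all 22 alternatives (4.89e-07 to 0.0337).

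For Hoxd4 the 96 h values were 7.798, 7.597 and 7.87 CPM under the control compound and 8.63, 5.797 and 6.696 CPM with WM-8014, with the controls inside the range of the treated libraries (-0.14, adjusted p = 0.435). The effects differed by -0.66 (SE 0.17, adjusted p = 0.0143), a call lost without culture 5 of the WM-8014 96 h group (0.0671), without WM-2474 96 h cultures 6 and 7 (0.148), and without culture 5 (0.177), 6 (0.0538) or 7 (0.0603) in all groups. Hoxd3 had a difference of the same sign that did not pass (-0.58, adjusted p = 0.14). Without the block no member had a more positive effect at 240 h that passed with edgeR or DESeq2, and 1, Hoxa5, did at an unadjusted p under 0.05 (0.31, adjusted p = 0.133). With the block Hoxa10 did, with a difference of 0.56 (adjusted p = 0.00917), beside 0.47 (adjusted p = 0.617) without it.

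**Figure D4:**
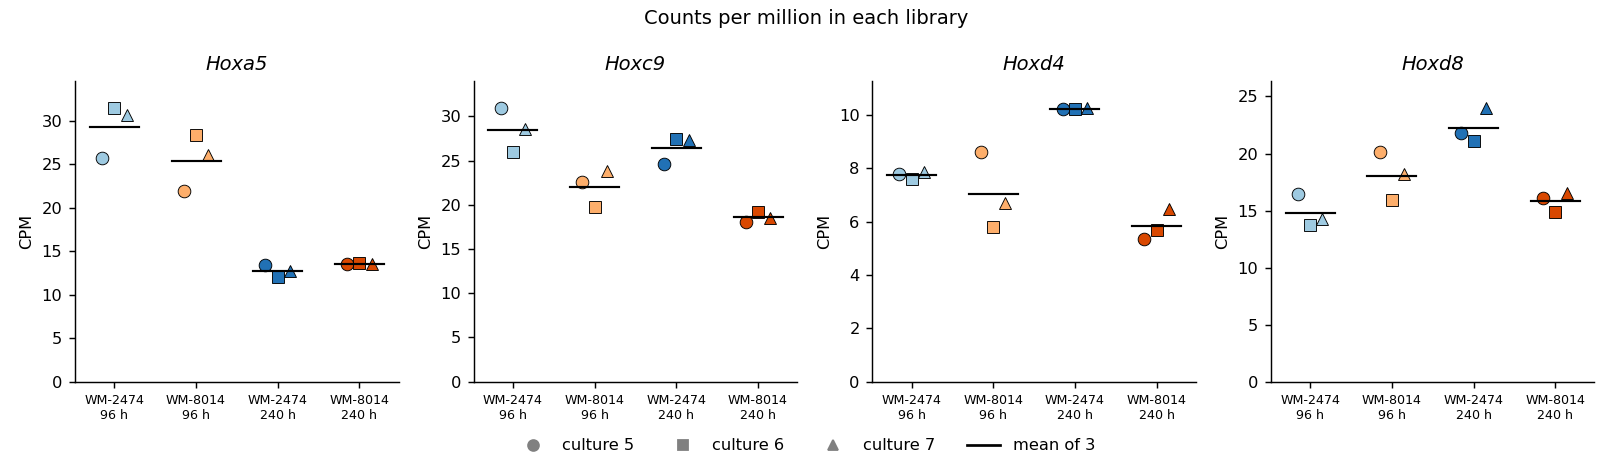
CPM of Hoxa5, Hoxc9, Hoxd4 and Hoxd8 in each of the 12 libraries, with a symbol per culture and a line at the mean of 3. Hoxa5 drops with time whatever the compound, Hoxc9 is lower with WM-8014 at both times, and Hoxd4 and Hoxd8 are lower with WM-8014 at 240 h.

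Read by paralogue number, the falls at 240 h covered numbers 2, 3, 4, 6, 8 and 9. All 3 members of group 8 fell: Hoxb8, Hoxc8 and Hoxd8. In group 9 Hoxc9 fell, while Hoxa9, Hoxb9 and Hoxd9 did not pass (-0.20, -0.13 and 0.08). Group 7 gave no call between compounds at either time. Hoxa7 differed by 0.004 (95% interval -0.19 to 0.20) at 96 h and 0.00 (-0.22 to 0.22) at 240 h, and Hoxb7 by 0.03 (-0.14 to 0.20) and 0.06 (-0.11 to 0.22). Yet Hoxa7 fell with time and Hoxb7 did not pass there, at -0.03 and -0.003. Within group 4, Hoxc4 and Hoxd4 fell at 240 h, while Hoxa4 (-0.19) and Hoxb4 (-0.12) did not pass. Group 5 gave a call at 96 h (Hoxc5) and none at 240 h: Hoxa5 was then at 0.09, Hoxb5 at -0.17 and Hoxc5 at -0.08. Groups 10 and 11 gave none at either time without the block. With it Hoxa10 passed at 96 h (0.000549) and Hoxc11 at 240 h (0.0381), and leaving out a library or a culture also gave calls at 96 h, to Hoxc11 (0.0332 without culture 7 of the WM-8014 96 h group) and Hoxa10 (0.00408 without culture 7 in all groups).

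The tail end of cluster c went the other way from its middle without passing. Hoxc11 was at 0.536, 0.356 and 0.297 CPM under the control compound and 0.706, 0.899 and 0.693 CPM with WM-8014 at 240 h. Hoxc12, next to it and under the filter, was at 0.214, 0.178 and 0.0495 CPM without the inhibitor and 1.01, 0.4495 and 0.519 CPM with it, from 9 and 32 reads in all. The groups of both genes did not overlap, and the levels were near the 3-read floor of 0.104 to 0.303 CPM at this time. The log2 fold change of Hoxc11 was 1.01 (95% interval -0.01 to 2.03, adjusted p = 0.104), with a call under the replicate block (0.0381), with only the libraries compared (0.032) and without culture 7 of the WM-8014 96 h group (0.0359). Hoxc12 was tested when the filter was dropped and then had 1.94 (adjusted p = 0.0114). That call was lost without culture 6 (0.0524) or 7 (0.0977) of the WM-2474 240 h group, culture 5 of the WM-8014 240 h group (0.077), or culture 6 (0.0673) or 7 (0.0574) in all groups. Beyond Hoxc12 lies Hoxc13, of paralogue group 13, at 0.727 ± 0.1498 CPM under the control compound and 12.97 ± 1.07 CPM with WM-8014 (4.15, adjusted p = 2.13e-12).

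At 96 h Hoxc11 showed how little its counts can carry. It was at 0.928, 1.16 and 0.758 CPM under the control compound and 2.24, 1.296 and 0.406 CPM with WM-8014, and the WM-8014 group spanned the controls. Its log2 difference of 0.57 became -0.06 without culture 5 of the WM-8014 96 h group. Hoxd10, Hoxd11 and Hoxd12 stood near the floor in most libraries, and no direction is read from them for the compound.

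Several high-numbered members differed between the cultures themselves, whatever was added and for how long. In a test for culture differences with group means in the model, chosen after seeing the data, Hoxa10, Hoxa11 and Hoxc10 passed, 3 of 29, beside 1.49% of all genes. These act in the hip region and the limbs. Mean levels of Hoxa10 were 15.2 CPM in culture 5, 13.8 in culture 6 and 9.23 in culture 7 (adjusted p = 3.1e-05, edgeR). In the libraries it was at 21.3, 19.03 and 11.6 CPM without the inhibitor and 12.8, 13.6 and 9.402 CPM with it at 96 h. At 240 h it was at 13.4, 11.6 and 6.88 CPM and, with the inhibitor, 13.1, 11.1 and 9.06 CPM. Culture 7 was the lowest of the 3 in every group.

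Hoxa11 had means of 7.25, 6.43 and 4.27 CPM in cultures 5, 6 and 7 (adjusted p = 0.00154). Hoxc10 had 23.3, 22.3 and 17.7 CPM (adjusted p = 0.000431). Culture 7 was again the lowest in all 4 groups for both. All 3 passed without any one library (adjusted p at most 0.00453, 0.0223 and 0.0211) and without WM-2474 96 h cultures 6 and 7 (0.00816, 0.0052 and 0.0267). The labels do not say which embryos or body parts each culture came from.

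**Figure D5:**
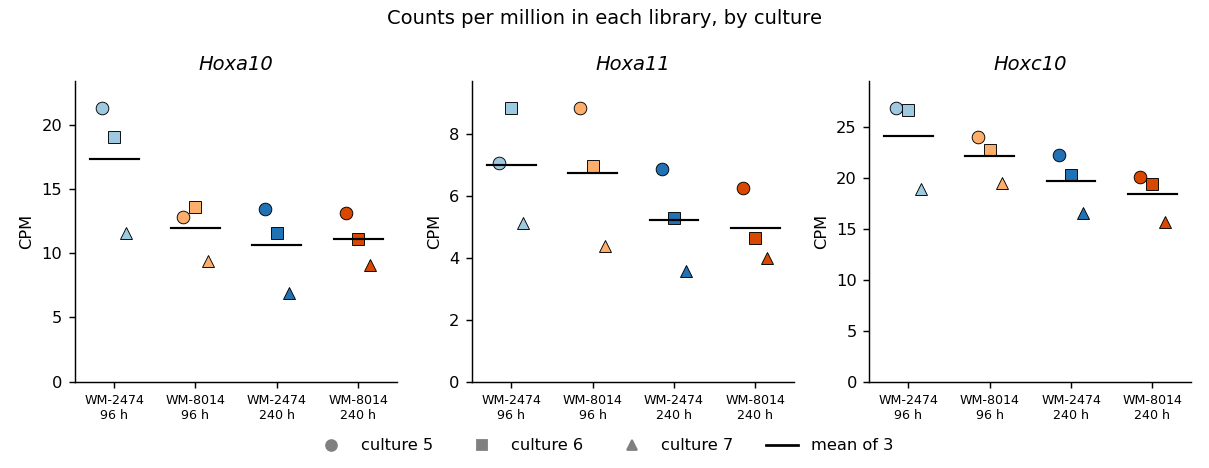
CPM of Hoxa10, Hoxa11 and Hoxc10 in each library, by group, with a symbol per culture and a line at the mean of 3. The triangles of culture 7 lie lowest in each of the 4 groups for all 3 genes.

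Noncoding RNAs inside the clusters followed the time pattern of cluster a in part. Of 16 names, 10 were in the table and 4 were tested. Mira, a noncoding RNA beside Hoxa7, was at 11.5, 14.2 and 14.5 CPM at 96 h and 7.45, 6.14 and 7.53 CPM at 240 h with WM-2474. With WM-8014 it was at 11.2, 12.8 and 11.5 CPM at 96 h and 5.35, 7.26 and 6.46 CPM at 240 h. The time points did not overlap, as for Hoxa7 (log2 fold changes -0.97 and -0.85, adjusted p = 5.61e-07 and 6.09e-06). Mira overlaps a longer GENCODE 3′ UTR of Hoxa7 on the genome, so reads of both loci may be shared.

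Hoxaas3, antisense to Hoxa5 and Hoxa6, fell with time, with log2 changes of -1.76 with WM-2474 and -0.86 with WM-8014, and fell at 96 h with a change of -0.83 with WM-8014 (adjusted p = 0.0181). It is uncertain, since without a known strand setting its reads and those of Hoxa3, Hoxa5 and Hoxa6 cannot be told apart.

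The Mir196a-1 row went up. With WM-2474 it was at 2.79, 2.39 and 3.54 CPM at 96 h and 4.61, 5.38 and 4.01 CPM at 240 h. With WM-8014 it was at 3.46, 4.57 and 4.67 CPM at 96 h and 5.45, 6.81 and 7.96 CPM at 240 h. The 240 h libraries were above the 96 h libraries within each compound, and at 240 h WM-8014 was above WM-2474 (log2 fold change 0.55, SE 0.16, adjusted p = 0.007). These are reads of an mRNA library over the hairpin's locus and say nothing of the mature microRNA printed above. Of the 8 members with the seed match, Hoxa4, Hoxa5, Hoxa7 and Hoxa9 fell over the same interval with both compounds and Hoxc8 rose with both. Hoxb6 fell with WM-8014, Hoxb7 did not pass and Hoxb1 was not tested. Hoxa2, Hoxa3 and Hoxa6, cluster a genes without this match, fell with both compounds as well. Over all genes, 19.1% were lower at 240 h with WM-2474 and 25% with WM-8014. A part of the microRNA in these changes was not tested.

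The partners of Hox proteins on DNA, the TALE homeodomain proteins, which include the Meis and Pknox families, were also read. At 96 h 2 of 9 fell (Meis1 and Meis2) and none rose, beside 11.8% of all genes lower. At 240 h 4 fell (Meis1, Meis2, Pknox1 and Pknox2), beside 21.4% of all genes. Meis1 was at 28.1 ± 1.19 CPM under the control compound and 19.8 ± 1.24 CPM with WM-8014 at 240 h (-0.52, adjusted p = 2.66e-06). Pknox2 was at 5.43 ± 0.276 and 2.82 ± 0.738 CPM (-1.01, adjusted p = 6.68e-05), and Pknox1 fell (-0.36). The list's median was -0.03 at 96 h and -0.07 at 240 h.

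Of 22 tested factors known to act upstream of Hox genes, 6 fell and 3 rose at 96 h, and 10 fell and 4 rose at 240 h. Over all genes, 11.8% were lower and 10.9% higher at 96 h, and 21.4% and 21.2% at 240 h. Ezh2, the Polycomb enzyme that marks silent Hox genes, was at 31.6 ± 1.18 CPM under the control compound and 15.99 ± 1.29 CPM with WM-8014 at 240 h (-0.97, adjusted p = 1.04e-09). Suz12, of the same complex, fell (-0.28). Men1, whose product menin brings the trithorax enzyme MLL to Hox genes, fell at both times, with changes of -0.37 at 96 h and -0.51 at 240 h (adjusted p = 1.19e-05 and 1.93e-08). Bmi1, a Polycomb gene, rose by 0.35 and 0.27. The genes that fell thus held both a known activator (Men1) and known repressors (Ezh2 and Suz12) of Hox genes. The part of the listed factors in the Hox changes was not tested.

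Among 20 tested genes beside the clusters, the nearest on each side that are not Hox genes, 6 fell and 3 rose at 96 h, and 10 fell and 5 rose at 240 h, to be read beside the same shares of all genes (22.8% in either direction at 96 h and 42.6% at 240 h). All 5 tested neighbours of cluster d fell at 240 h, by at most 0.48 on the log2 scale (Hnrnpa3, an RNA-binding protein). Beside cluster a, Skap2 rose by 0.53 at 240 h. With time, 3 of 6 neighbours of cluster a fell and 1 rose with WM-2474, and 1 fell and 2 rose with WM-8014, with medians of -0.06 and -0.11.

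Of 17 other genes that mark positions in the embryo's mesenchyme, 3 fell and none rose at 96 h (22.8% of all genes changed in either direction), and 5 fell and 3 rose at 240 h (42.6% of all genes). En1, a limb and trunk gene, fell at both times (-0.36 and -0.48), and Emx2, a gene of the shoulder and urogenital ridge, did so too (-0.28 and -0.34). Dlx1 and Alx1, genes of the head mesenchyme, rose by 0.92 and 0.73 at 240 h. Summed over the 17, the level was 302 to 348 CPM with WM-2474 and 252 to 283 CPM with WM-8014 at 96 h, and 336 to 380 and 271 to 289 CPM at 240 h. At 240 h the kidney and gonad marker sum was 45.7 to 46.2 CPM with WM-8014 and 75.3 to 79.2 CPM with WM-2474. Of its 4 tested genes, 1 fell and 3 did not pass. The leukocyte marker sum was 9.58 to 11.2 CPM with WM-8014 against 4.95 to 6.22 CPM. Csf1r and Lyz2 carried most of that gap, with means of 5.4 and 2.01 CPM against 2.24 and 0.759 CPM. Ptprc and Adgre1 went the other way, at 0.0423 and 0.0336 CPM against 0.104 and 0.064 CPM. The part of these markers in the compound's effect on Hox genes was not tested.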

How the data were processed

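Messenger RNA was sequenced in 12 libraries, cultures 5, 6 and 7 in each of 4 groups by compound and time, made with a stranded mRNA kit, per the labels' protocols. The deposited table holds whole-number counts per Entrez gene, made by the authors with featureCounts on mm10, per the submitters' processing notes, and not normalized, per the file headers. For the aligner, annotation and strand setting: not given in the sources used here. A deposited column of gene lengths served as the divisor for RPKM.

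The analysis used edgeR 4.0.16 under R 4.3.3. Low genes were removed by filterByExpr (14136 kept of 27179, of which 25275 matched a symbol), scaled by TMM and fitted with 1 mean per group in a single model of the 12 libraries, so that all groups inform the dispersion (BCV 4.64%). Each contrast had a robust quasi-likelihood F test with Benjamini-Hochberg adjustment. The SE is the log2 fold change over the root of F, and 95% intervals use its degrees of freedom; intervals and floors of 3 reads cover these libraries only. The code was tested on simulated data. Coordinates, promoters and microRNAs are those of RefSeq (GRCm38.p6, the mm10 assembly, counted from 1), 3′ UTRs those of GENCODE M21. A protein table was not used here. The result of 1 gene on the lists is not reported here.

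The members and the accompanying lists were chosen with earlier results of these data known, and so was the setting without WM-2474 96 h cultures 6 and 7, which those results showed apart in a few genes. Values in every library are given for members that passed in a compound comparison (at most 12 each) and for the 2 most abundant of each cluster; of the lists, up to 4 passing genes by smallest p. Meis2, Hoxa10, Hoxa11, Hoxc10, Hoxc11 and Hoxc12 were singled out after their values were seen. Replicates of a group differed by more than sampling noise (chi-square per degree of freedom 2.1 to 7.13). Same-numbered cultures deviated together at 96 h between compounds (correlations across genes 0.141, 0.15 and 0.158, limit 0.1), so there the block is given beside the result. Alternatives were DESeq2 1.42.0, its size factors, other filters, the block, only the libraries compared, thinned counts, and leaving out libraries. The series calls the cultures biological replicates; no label says which embryos each came from.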

Additional observations from a re-analysis of the deposited data

Results flagged for a closer look

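The effect of WM-8014 differed between the time points for 2 members by a test of the difference itself. For Hoxd8 the log2 effect at 240 h was lower than that at 96 h by a difference of -0.81 (adjusted p = 0.000194, edgeR), with 0.30 at 96 h (higher in 3 of 3 cultures) and -0.50 at 240 h (lower in 3 of 3 cultures). For Hoxd4 the difference was -0.66 (adjusted p = 0.0143), with -0.14 at 96 h and -0.80 at 240 h, and it rested in part on culture 5 of the WM-8014 96 h group (adjusted p = 0.0671 without it). With WM-2474 both genes also rose from 96 to 240 h, from 14.8 ± 1.42 to 22.3 ± 1.49 CPM for Hoxd8 and from 7.75 ± 0.141 to 10.2 ± 0.0111 CPM for Hoxd4 (SD, n = 3). With WM-8014 they were at 18.1 ± 2.11 and 15.8 ± 0.8401 CPM, and at 7.04 ± 1.45 and 5.83 ± 0.575 CPM.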

How the results depend on the processing

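Without WM-2474 96 h cultures 6 and 7, fewer members passed at 96 h, in the interaction and with time under WM-2474. Fewer of all genes passed in these comparisons too, with a lone library left in that group. Hoxc12, which the filter then kept, was higher at 240 h by 1.93 on the log2 scale. Why was not tested. With thinned counts 0 rose at 96 h. At 240 h 1 rose with no filter (Hoxc12), with the replicate block (Hoxc11) and with only the libraries compared (Hoxc11). With the replicate block 14 members fell with time under WM-2474 in place of 9, beside 2857 in place of 2697 of all genes. There 1 (Hoxa10) had a more positive effect at 240 h, beside 917 in place of 728 of all genes. Pairs other than those at 96 h did not all deviate together (0.029 to 0.243). The block added calls and ended none in the compound comparisons. Leaving out replicates gave 0 to 1 rising and 4 to 11 falling at 96 h, 0 to 2 rising at 240 h, 1 to 2 with a more negative effect at 240 h, 3 to 7 rising with time under WM-2474 and 1 to 2 under WM-8014; these fits hold fewer samples. The log2 change of Hoxb6 reversed without WM-2474 96 h cultures 6 and 7, to 0.033 at 96 h and 0.049 with time under WM-2474, and that of Hoxc11 at 96 h to -0.038 without replicate 5 and to -0.055 without culture 5 of the WM-8014 96 h group; without culture 7 of that group it was 0.999 (adjusted p = 0.0332). Depth limits Hoxb1, Hoxc12, Hoxd1, Hoxd10, Hoxd11 and Hoxd12.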
